A study of Homo sapiens with 16 samples.

Results

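The genes described here make cholesterol, move it through the cell, or control that supply through the SREBP transcription factors. They are the 31 genes of a list of that pathway, matched by symbol in a table of 17552 genes with values, and all 31 were found. The list holds 8 genes of the mevalonate segment and its isoprenoid outlet, 12 of the sterol segment, 5 of SREBP control, and 6 of sterol transport, storage and export. Of the 31 genes, 30 reached the mean of at least 1 FPKM over all libraries that was required for testing. ABCG1, a sterol exporter, did not: it was listed at 0 to 0.12 FPKM, where 1 fragment is worth about 0.0198 FPKM by the depth estimate below. FPKM counts sequenced fragments relative to transcript length and to the size of the library, so it can be compared between genes.

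RNA was measured in HT-1080, an established human fibrosarcoma line that is much used to study ferroptosis, an iron-dependent death of cells through peroxidized lipids. Every group was this line in 4 backgrounds: the control siRNA (siNS), depletion of DCAF8 (siDCAF8), overexpression of WDR76 (oeWDR76), and depletion of DCAF8 and LSH together (siDCAF8+siLSH). Each background was harvested untreated or with erastin, a blocker of cystine uptake, at 10 µM for 24 h, which made 8 groups of 2 libraries and 16 libraries in all. CRL4 ubiquitin ligases use DCAF8 to recognise their substrates, WDR76 carries WD40 repeats and also serves ubiquitin ligases, and LSH, whose gene is HELLS, remodels chromatin. The oeWDR76 cells have no vector control, and the labels do not give the number of siRNAs for a target. Since nothing states that paired libraries are from different cultures, the p-values measure only the spread between these libraries, which may be technical.

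Cells build cholesterol from acetyl-CoA through mevalonate, the isoprenoid farnesyl diphosphate, squalene and lanosterol. When membranes of the endoplasmic reticulum run low in sterol, SCAP carries SREBP precursors, encoded by SREBF1 and SREBF2, to the Golgi, where they are cut and released to switch on the genes of synthesis and uptake. INSIG1 and INSIG2 hold the SCAP complex back when sterol is plentiful, and INSIG1 is itself a target of SREBP. Sterol intermediates and isoprenoids of this pathway are known to bear on the sensitivity of cells to lipid peroxidation.

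SREBPs bind sterol regulatory elements, commonly beside a CCAAT box bound by NF-Y, so the start regions of 4 members are shown: HMGCS1, INSIG1 and STARD4, the members with the largest rises under erastin in siNS, and SREBF2, the only member whose window held the element searched for. Each sequence is the strand of the gene, read 5′ to 3′ from 250 bases before to 50 bases after a RefSeq start site on GRCh38.p14, and capitals mark matches on either strand to TCACNCCAC (the element, with N any base) or to CCAAT, whose reverse complement reads ATTGG. HMGCS1 lies on the minus strand at chr5:43313363-43313662 and has a second RefSeq start nearby. INSIG1 lies on the plus strand at chr7:155297628-155297927. STARD4 lies on the minus strand at chr5:111512486-111512785. SREBF2 lies on the plus strand at chr22:41832855-41833154.
HMGCS1: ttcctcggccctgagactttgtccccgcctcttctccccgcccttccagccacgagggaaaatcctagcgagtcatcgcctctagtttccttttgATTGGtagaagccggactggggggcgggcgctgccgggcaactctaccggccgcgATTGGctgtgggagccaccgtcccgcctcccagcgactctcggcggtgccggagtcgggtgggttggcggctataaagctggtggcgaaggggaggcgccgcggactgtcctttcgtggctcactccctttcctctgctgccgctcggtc
INSIG1: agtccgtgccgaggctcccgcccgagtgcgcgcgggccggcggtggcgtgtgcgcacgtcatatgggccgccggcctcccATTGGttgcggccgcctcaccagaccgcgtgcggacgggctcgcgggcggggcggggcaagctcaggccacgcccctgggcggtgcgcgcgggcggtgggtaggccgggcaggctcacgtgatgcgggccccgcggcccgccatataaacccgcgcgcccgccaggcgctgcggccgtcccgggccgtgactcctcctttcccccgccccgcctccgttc
STARD4: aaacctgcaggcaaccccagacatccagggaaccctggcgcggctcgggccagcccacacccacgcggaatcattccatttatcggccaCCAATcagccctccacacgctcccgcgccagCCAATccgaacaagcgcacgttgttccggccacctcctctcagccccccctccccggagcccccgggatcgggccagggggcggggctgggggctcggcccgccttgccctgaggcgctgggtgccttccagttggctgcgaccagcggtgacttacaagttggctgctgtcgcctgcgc
SREBF2: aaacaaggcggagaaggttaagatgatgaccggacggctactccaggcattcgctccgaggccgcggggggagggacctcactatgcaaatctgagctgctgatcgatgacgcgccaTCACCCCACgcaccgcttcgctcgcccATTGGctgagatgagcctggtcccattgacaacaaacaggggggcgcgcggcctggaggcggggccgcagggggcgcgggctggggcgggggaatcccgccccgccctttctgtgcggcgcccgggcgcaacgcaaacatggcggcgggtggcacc
The SREBF2 window holds 1 match to the element and 1 CCAAT match, those of HMGCS1 and STARD4 hold 2 CCAAT matches, and that of INSIG1 holds 1. RefSeq windows were at hand for 27 of the 31 members, in 36 windows. The element matched in 1 of those 27 members, against 1.13% of 35116 human promoter windows of this length. CCAAT matched in 19 of the 27 members and in 58.3% of their windows, against 34.6% of all windows. A match in this window is a description of letters and was not tested as a binding site.

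The targeted genes were measured in every library. DCAF8 was 38.9 and 40.43 FPKM in untreated siNS, 11.8 and 12.23 in siDCAF8, and 14.26 and 17.41 in siDCAF8+siLSH, so its depletion was less deep in the double knockdown. WDR76 was 2.89 and 3.52 FPKM in untreated siNS and 241.71 to 323.7 in the 4 oeWDR76 libraries. WDR76 was also above untreated siNS in untreated siDCAF8 (5 and 5.31) and untreated siDCAF8+siLSH (7.53 and 7.69). HELLS was 3.98 and 4.05 FPKM in untreated siNS, 6.83 and 7.45 in siDCAF8, 4.05 and 4.07 in siDCAF8+siLSH, and 2.12 and 2.36 there with erastin. The HELLS RNA of untreated siDCAF8+siLSH thus lay at the siNS level and below that of siDCAF8. HELLS was highest in oeWDR76, at 10.48 and 11.24 FPKM untreated and 10.76 and 10.96 with erastin. Of 8 mesenchymal markers 7 were well expressed, such as VIM at 1273 to 2067 FPKM, and THY1 was at 0 to 0.14. Markers of other cell types were at or near 0, with EPCAM at 0 to 0.2, KRT5 at 0 to 0.03 and APOA1 at 0 to 0.32, and PTPRC at 0.97 to 2.05 and PECAM1 at 0.7 to 3.16 were low. Depth was estimated from short genes, as the median of values in a preset range taken to stand for 1 fragment. This gave 16030000 to 16390000 fragments a library. The range bounds the estimate, so its closeness between libraries is not a result. The 4 oeWDR76 libraries stood apart, with higher FPKM totals (495857 to 503867, against at most 455662) and, per 10% more GC in the gene, levels higher by 0.185 to 0.232 log2, against -0.160 to 0.0307 in the others. The labels name no batch, and a batch holding only the oeWDR76 libraries cannot be told apart from WDR76.

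The erastin-treated siDCAF8 libraries differed from each other over these genes. In replicate 2, 25 of the 30 tested members were higher than in replicate 1, by a median of 0.24 log2, whereas 49.5% of all tested genes were higher, with a median difference of 0. HMGCS1 was 43.05 and 66.33 FPKM in replicates 1 and 2, and MSMO1 was 77.91 and 112.13. In erastin-treated siNS, 8 members were higher and 21 lower in replicate 2, with a median of -0.08. Differences that rest on these 2 libraries are therefore given with both and then without replicate 1 and without replicate 2, in that order.

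**Figure D1:**
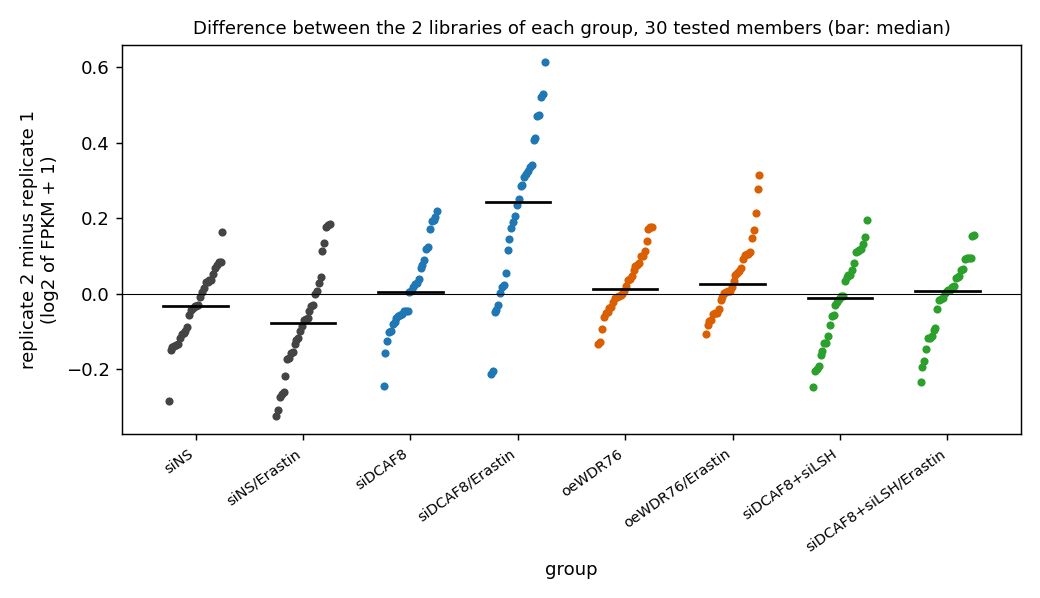
Replicate 2 minus replicate 1 of each group, as the log2 difference of FPKM plus 1, for the 30 tested members (points), with the median as a bar. The erastin-treated siDCAF8 group is shifted up, with 25 of 30 members above 0, whereas the other groups lie closer to 0.

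By level, FDPS, which makes farnesyl diphosphate, had the highest mean over the 16 libraries (139.9 FPKM), before FDFT1, the squalene synthase (131.3), and NPC2, a sterol carrier of the lysosome (114.7). The lowest tested member was TM7SF2, a sterol reductase, at 5.33 FPKM. The members varied unequally: HMGCS1, which makes HMG-CoA, ran from 12.15 to 110.33 FPKM, a 9.08-fold range, STARD4, a carrier of sterol between membranes, had a 6.14-fold range and ABCA1, which exports cholesterol to lipoproteins, a 6.09-fold range. GGPS1, which makes geranylgeranyl diphosphate, ran from 10.29 to 13.40 FPKM, a 1.3-fold range. By the gene positions that the submitters deposited, HMGCS1 (gene 3157) lies on chromosome 5 at 43287470 to 43313512. STARD4 (gene 134429) lies on chromosome 5 at 111496033 to 111512597, and INSIG1 (gene 3638) on chromosome 7 at 155297772 to 155310235. ABCA1 (gene 19) lies on chromosome 9 at 104781002 to 104928246, and SREBF1 (gene 6720) on chromosome 17 at 17811349 to 17837011. SREBF2 (gene 6721) lies on chromosome 22 at 41833079 to 41907308. The plot of levels by group shows these and other members in every library.

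**Figure D2:**
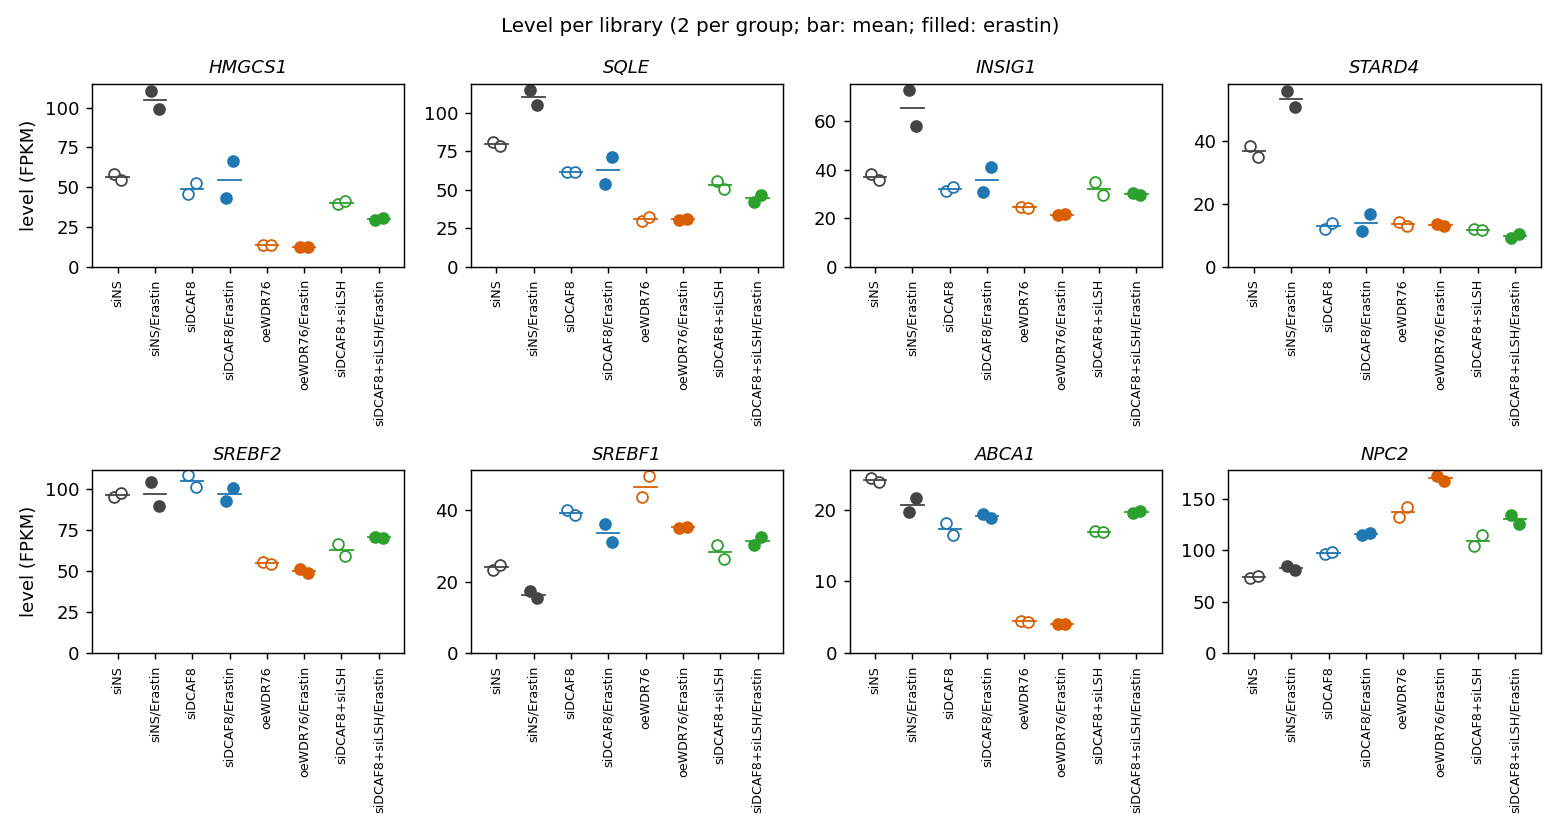
Level in FPKM (y axis) of 8 members in each of the 8 groups (x axis). Open points are untreated and filled points erastin-treated libraries, and bars are means of 2. HMGCS1, SQLE and INSIG1 are highest in erastin-treated siNS, STARD4 is high in the 4 siNS libraries alone, and ABCA1 is lowest in the 4 oeWDR76 libraries.

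In siNS, erastin raised 10 of the 30 members and lowered 7. Over all 11260 genes tested, 15.1% were called higher and 22.4% lower, 37.5% in either direction, at an adjusted p under 0.05 from limma on log2(FPKM + 1). The median of the members was 0.04 log2, against -0.03 for all genes. Those called higher were HMGCS1 and IDI1 of the mevalonate segment, 5 sterol enzymes, INSIG1 and a pair of transport genes, and those called lower were 5 enzymes, SREBF1 and ABCA1. The member median was not steady when 1 library was left out. It was 0.029 without siNS replicate 1 and 0.068 without siNS replicate 2. Without erastin-treated siNS replicate 1 it was -0.0031, and without replicate 2 of that group 0.12. In bulk RNA, fewer cells with a transcript and less of it per cell cannot be told apart.

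In the mevalonate segment, HMGCS1 was 58.46 and 54.36 FPKM in siNS and 110.33 and 99.02 with erastin. Both treated libraries lay far above both untreated ones, a 1.84-fold rise (log2 0.88, SE 0.13, adjusted p = 5.9e-05). IDI1, the isomerase that makes dimethylallyl diphosphate, rose 1.25-fold, from 62.68 and 56.97 to 78.3 and 72.09 FPKM (adjusted p = 0.0272). PMVK, the phosphomevalonate kinase, went the other way, from 13.3 and 12.88 to 8.07 and 9.29 FPKM, and fell by 0.54 on the log2 scale (SE 0.10, adjusted p = 0.000622). FDPS fell by 0.27 (adjusted p = 0.00246). Thus 2 of 8 members of this segment rose, 2 fell, and MVK, MVD, GGPS1 and ACAT2 did not pass the test.

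In the sterol segment 5 of 12 members rose and 3 fell. SQLE, the squalene epoxidase that sets the pace of this segment, was 81.01 and 78.83 FPKM untreated and 114.92 and 105.46 with erastin, a 1.37-fold rise (log2 0.46, SE 0.10, adjusted p = 0.00164). MSMO1, a demethylase, rose by 0.39 log2 (adjusted p = 0.00965), SC5D, a desaturase, by 0.32 (0.0115), DHCR7, a reductase late in the pathway, by 0.28 (0.0339), and CYP51A1, the lanosterol demethylase, by 0.27 (0.00846). TM7SF2 and LBR, which carry the same reductase activity, fell by 0.28 and by 0.23, and LSS, which closes the ring to lanosterol, fell by 0.26. The rising enzymes were thus spread from squalene to the last steps, with falling ones between them.

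Among the control genes, INSIG1 rose and SREBF1 fell. INSIG1 was 38.09 and 35.8 FPKM in siNS and 72.88 and 58.03 with erastin, a 1.74-fold rise (log2 0.80, SE 0.11, adjusted p = 4.97e-05). SREBF1 was 23.31 and 24.77 FPKM, and 17.42 and 15.33 with erastin, so its groups did not overlap and it fell by 0.53 (SE 0.08, adjusted p = 0.000146). SREBF2 did not pass the test, at 94.76 and 97.27 against 103.79 and 89.21 FPKM, with an interval of -0.15 to 0.15 log2. SCAP and INSIG2 did not pass either.

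Of the 5 tested transport genes, STARD4 and NPC2 rose and ABCA1 fell. STARD4 was 38.44 and 34.98 FPKM in siNS and 55.89 and 50.84 with erastin, a 1.44-fold rise (log2 0.53, SE 0.12, adjusted p = 0.00302). NPC2 rose by 0.16 and ABCA1 fell by 0.22. HMGCS1, INSIG1, STARD4, SQLE, PMVK, SREBF1 and FDPS passed the test without each of the 4 libraries in turn, and the other 10 called members did not. The falls of TM7SF2 and LSS were also lost once GC content and length were corrected (adjusted p = 0.298 and 0.0729).

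In siDCAF8, erastin raised 5 members and lowered 8. Of all genes, 18.3% were called higher and 22.5% lower, 40.9% in all, and the medians were 0.01 log2 for the members and -0.02 for all genes. Without replicate 1 or replicate 2 of the treated pair the median of the members was 0.10 or -0.15. The falls lay in enzymes, SCAP and SREBF1, and NPC1, which passes cholesterol out of the lysosome, was the member that rose most. NPC1 was 80.18 and 67.57 FPKM untreated and 94.88 and 104.98 with erastin, a 1.35-fold rise (log2 0.43, SE 0.08, adjusted p = 0.000625; 0.51 and 0.36 without each treated library). PMVK went from 15.92 and 14.78 to 10.74 and 9.13 FPKM, falling by 0.58 (SE 0.10, adjusted p = 0.000332), with -0.69 and -0.48 without each. LSS went from 26.81 and 25.94 to 15.52 and 19.57 FPKM, falling by 0.57 (SE 0.09, adjusted p = 0.000121), with -0.41 and -0.73 without each. None of these 3 overlapped between untreated and treated libraries. Here and elsewhere, members were named for large differences, so libraries that lie apart add no support to their calls.

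The members that led in siNS had treated libraries on both sides of the untreated ones here. HMGCS1 was 45.59 and 52.65 FPKM untreated and 43.05 and 66.33 with erastin (log2 0.12, interval -0.14 to 0.39, adjusted p = 0.461). Without replicate 1 of the treated pair its difference was 0.43 (adjusted p = 0.00186), and without replicate 2 it was -0.18 (adjusted p = 0.124), so the sign turned with the library kept. INSIG1 likewise had 0.14 with both (adjusted p = 0.332), 0.35 (0.0252) without replicate 1 and -0.06 (0.699) without replicate 2. STARD4 had 0.08, 0.34 and -0.18, and IDI1 0.12, 0.36 and -0.11, so both turned likewise. The fall of SREBF1 (-0.22, adjusted p = 0.0454) was -0.32 and -0.12 (0.368). The rises of MSMO1 and SC5D, 0.35 and 0.27 with both libraries and 0.61 and 0.44 without replicate 1, were lost without replicate 2, at 0.09 (0.348) and 0.11 (0.376), and also once GC content and length were corrected. The calls were 9 higher and 5 lower without replicate 1, 3 higher and 10 lower without replicate 2, and 7 higher and 7 lower with quantile normalization. PMVK, FDPS, LSS, SCAP, NPC1 and NPC2 were called without each of the 4 libraries.

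With oeWDR76, erastin left 2 members called, where 0.471% of all genes were called higher and 0.977% lower, 1.45% in all. At an unadjusted p under 0.05, 6 of the 30 members were found, against 1527 of all 11260 genes tested. NPC2 was 132.26 and 141.94 FPKM untreated and 172.71 and 167.83 with erastin, a 1.24-fold rise (log2 0.31, SE 0.06, adjusted p = 0.0107). SREBF1 was 43.63 and 49.45 FPKM, and 35.13 and 35.32 with erastin, a fall by 0.39 (SE 0.08, adjusted p = 0.0305). Both sets of libraries were apart, yet neither call held without each of the 4 libraries, with counts of 0 or 1 member called. HMGCS1 was 13.75 in both untreated libraries and 12.15 and 12.32 with erastin (log2 -0.16, interval -0.42 to 0.11, adjusted p = 0.624). INSIG1 was 24.67 and 24.27 FPKM, and 21.06 and 21.6 with erastin (log2 -0.19, interval -0.43 to 0.05, adjusted p = 0.483). No member of the mevalonate or sterol segments passed.

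In siDCAF8+siLSH, erastin raised 4 members and lowered 5, where 10.6% of all genes were called higher and 9.54% lower, 20.2% in all. The median of the members was -0.10 log2, against 0.01 for all genes. NPC1 was 61.94 and 53.82 FPKM untreated and 93.39 and 85.97 with erastin, a 1.54-fold rise (log2 0.63, SE 0.08, adjusted p = 6.96e-05). TM7SF2 was 4.02 and 3.59, and 5.99 and 5.11 with erastin, a 1.36-fold rise (log2 0.45, SE 0.10, adjusted p = 0.00617). HMGCS1 was 39.31 and 41.13, and 29.39 and 30.76 with erastin, a fall by 0.41 (SE 0.13, adjusted p = 0.0317). The libraries were apart for these 3, with HMGCS1 lower under erastin in this background. The call of HMGCS1 was lost without any 1 of the 4 libraries (adjusted p from 0.0675 to 0.152) and with the GC and length correction (0.0576), whereas those of NPC1, LBR, the reductase of the nuclear envelope, and ACAT2, a thiolase at the entry to the pathway, held without each. The count was 4 without untreated siDCAF8+siLSH replicate 2 and 5 without treated replicate 1.

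NPC2 was the 1 member called higher under erastin in all 4 backgrounds, by 0.16, 0.25, 0.31 and 0.25 log2 in siNS, siDCAF8, oeWDR76 and siDCAF8+siLSH. No test compared that pattern with those of other genes. The call in siDCAF8 held without each library (0.26 and 0.24 without each treated one), and those in the other 3 did not.

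**Figure D3:**
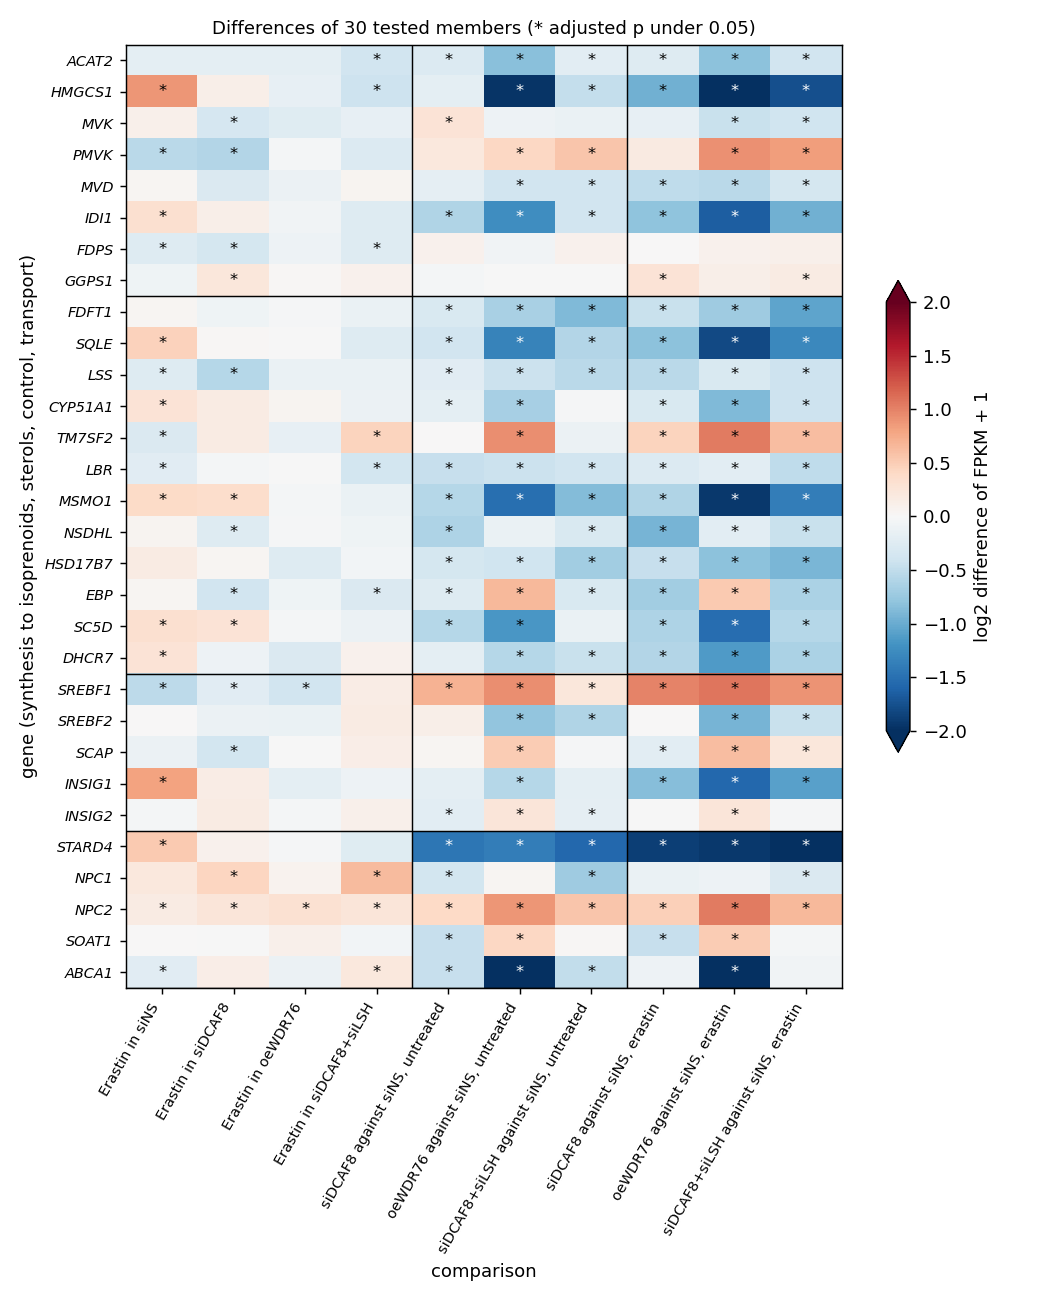
Log2 difference of FPKM plus 1 (colour, blue lower and red higher, clipped at 2 in size) for the 30 tested members (rows, by role) in 10 comparisons (columns), with an asterisk where limma's adjusted p was under 0.05. Erastin in oeWDR76 carries 2 asterisks, and the comparisons of the 3 altered backgrounds with siNS are mostly blue in the sterol rows.

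The erastin response was then compared between backgrounds, as the treated-minus-untreated difference in one background minus that in another. The comparisons with siNS share the 4 siNS libraries, so they are not independent of each other. Against siNS, the response of siDCAF8 was higher for 3 members and lower for 6, where 11% of all genes were called higher and 9.84% lower, 20.8% in all. That of oeWDR76 was higher for 1 member and lower for 6, against 9.04% and 5.11% of all genes, 14.1% in all. That of siDCAF8+siLSH was higher for 4 and lower for 8, against 15.6% and 9.13%, 24.8% in all. The members whose response differed most were HMGCS1 and INSIG1 in each of these comparisons, followed by TM7SF2, DHCR7 and STARD4 in turn.

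The response of HMGCS1, 0.88 log2 in siNS, was lower by a difference of -0.76 in siDCAF8 (SE 0.18, adjusted p = 0.00775), of -1.04 in oeWDR76 (SE 0.18, adjusted p = 0.00157) and of -1.29 in siDCAF8+siLSH (SE 0.18, adjusted p = 0.000155). HMGCS1 kept these calls without each of the 8 libraries in turn. Without erastin-treated siDCAF8 replicate 1 its difference for siDCAF8 was -0.45 (adjusted p = 0.0146), and without replicate 2 it was -1.06 (2e-05). INSIG1, with 0.80 in siNS, differed by -0.66 (adjusted p = 0.009), -0.99 (0.00103) and -0.90 (0.000984) in the same order. The INSIG1 difference in siDCAF8 was -0.45 (0.0421) and -0.86 (0.0011) without those libraries and was lost without erastin-treated siNS replicate 1 (-0.50, adjusted p = 0.0569).

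The other members that passed were fewer and less steady. In siDCAF8, MVK, SQLE, EBP and NSDHL had a lower response (differences of -0.44, -0.44, -0.43 and -0.32), and GGPS1, ABCA1 and TM7SF2 a higher one (0.32, 0.36 and 0.45). Without treated siDCAF8 replicate 1, MVK, SQLE, EBP and NSDHL had -0.30, -0.24, -0.31 and -0.32, none of them called, and without replicate 2 they had -0.59, -0.64, -0.54 and -0.32, all but NSDHL called. GGPS1 had 0.30 and 0.33, not called in either case, ABCA1 0.34 and 0.38, called in both, and TM7SF2 0.54 and 0.35, the latter not called (adjusted p = 0.141). TM7SF2 was also lost with quantile normalization (adjusted p = 0.0701) and once low genes were kept in the fit (0.107). HMGCS1 alone of these 9 members was called without each library. The median difference of the sterol enzymes was -0.12 with both treated siDCAF8 libraries, 0.035 without replicate 1 and -0.29 without replicate 2. That of the mevalonate genes was -0.14, -0.034 and -0.31 in the same order. In oeWDR76, DHCR7, STARD4, SQLE and HSD17B7 had a lower response (-0.56, -0.55, -0.47 and -0.42) and PMVK a higher one (0.50). Here the count was 2 to 4 without siNS replicate 1 or 2, erastin-treated siNS replicate 1, or any 1 of the 4 oeWDR76 libraries, and 0 higher and 9 lower with GC content and length corrected.

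In siDCAF8+siLSH, STARD4 went from 11.8 and 11.53 to 9.11 and 10.27 FPKM under erastin, and its response differed from that of siNS by -0.77 (SE 0.17, adjusted p = 0.00441). SQLE, IDI1, MSMO1, SC5D and CYP51A1 also had a lower response (-0.71, -0.58, -0.52, -0.44 and -0.39). Higher responses were those of TM7SF2 (0.73, or 0.48 with the GC and length correction), SREBF1 (0.67), ABCA1 (0.42) and NPC1 (0.42). HMGCS1, INSIG1, STARD4, SQLE, TM7SF2, SREBF1 and ABCA1 were called without each of the 8 libraries.

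**Figure D4:**
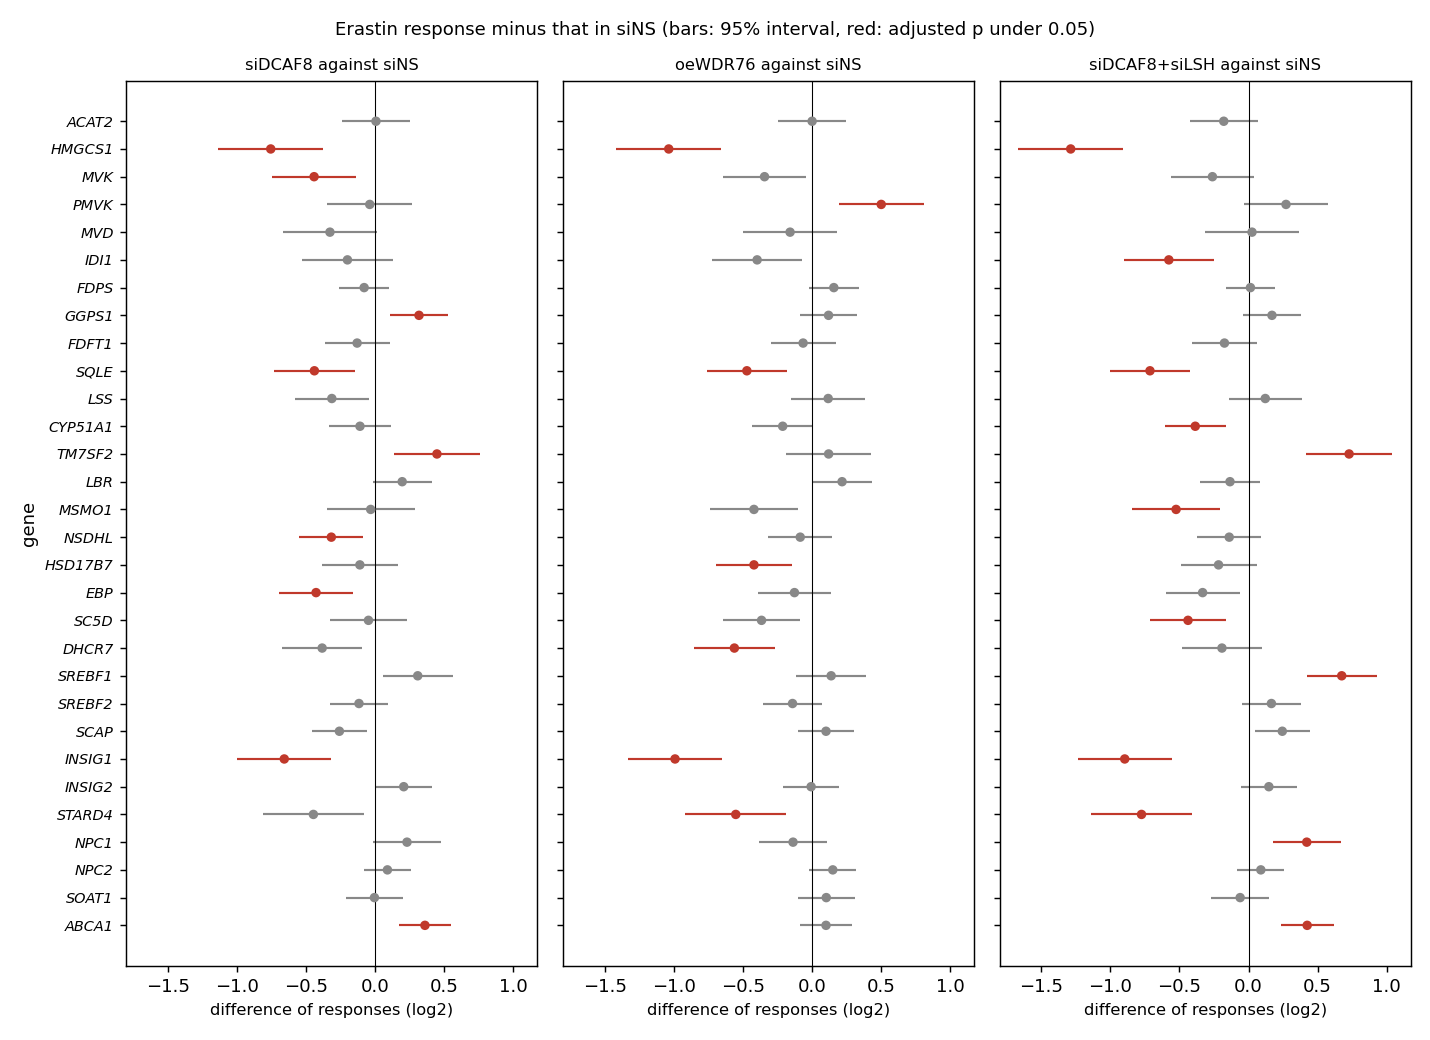
Difference of the erastin response from that of siNS (x axis, log2, with 95% intervals) for the 30 tested members (y axis) in siDCAF8, oeWDR76 and siDCAF8+siLSH, red where called. HMGCS1 and INSIG1 lie furthest to the left in all 3 panels.

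Between siDCAF8+siLSH and siDCAF8 the response differed for 7 members, 3 higher and 4 lower, where 14.2% and 9.24% of all genes were called, 23.5% in all. HMGCS1 had a difference of -0.53 (SE 0.18, adjusted p = 0.0423), SCAP, the escort of SREBP, 0.50 (SE 0.09, adjusted p = 0.00346) and MSMO1 -0.49 (SE 0.15, adjusted p = 0.0288). With GC content and length corrected, 0 members passed, with -0.34 (adjusted p = 0.325) for HMGCS1, 0.20 (0.138) for SCAP and -0.25 (0.418) for MSMO1. Without treated siDCAF8 replicate 1 and replicate 2, HMGCS1 had -0.84 and -0.22 (the latter not called, adjusted p = 0.172), SCAP 0.53 and 0.48, and MSMO1 -0.75 and -0.23 (0.0973). SCAP alone was called without each library. The median difference of the sterol enzymes was -0.075 with both treated siDCAF8 libraries, -0.24 without replicate 1 and 0.086 without replicate 2. That of the mevalonate genes was -0.027, -0.071 and 0.068 in the same order. With median-ratio scaling the split was 2 higher and 5 lower, and DCAF8 was less depleted in siDCAF8+siLSH than in siDCAF8, so this contrast does not isolate LSH.

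Untreated siDCAF8 cells had 3 members higher and 17 lower than untreated siNS, where 31% of all genes were called higher and 29.9% lower, 61% in all. Under erastin 4 members were higher and 19 lower, against 34.8% and 30% of all genes, 64.8% in all. The median of the members was -0.22 log2 untreated and -0.37 under erastin, beside 0.01 and 0.03 for all genes. Without treated siDCAF8 replicate 1 the erastin split was 4 and 16 with a median of -0.26, and without replicate 2 it was 4 and 19 with -0.46. All 12 sterol enzymes were called under erastin with both libraries and without replicate 2, 11 of them lower. Without replicate 1 the calls of CYP51A1 (-0.16, adjusted p = 0.059) and LBR (-0.18, 0.0659) were lost. Of all calls, 14 of 20 untreated and 19 of 23 with erastin held without each library. With GC content and length corrected, the untreated split was 5 higher and 14 lower.

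STARD4 had the largest difference in both states. It was 38.44 and 34.98 FPKM in siNS and 11.88 and 13.99 in siDCAF8, a fall by 1.44 or 2.71-fold (SE 0.12, adjusted p = 4.77e-08). Under erastin it was 55.89 and 50.84 against 11.24 and 16.64, 3.7-fold lower (log2 -1.89, adjusted p = 1.56e-09), and the difference was -1.62 without erastin-treated siDCAF8 replicate 1 and -2.15 without replicate 2. SREBF1 lay higher in siDCAF8, at 40.08 and 38.57 FPKM against 23.31 and 24.77 (1.61-fold, log2 0.69, SE 0.08, adjusted p = 2.73e-06), and 1.99-fold under erastin (log2 0.996, adjusted p = 3.16e-08; 0.89 and 1.10 without each treated siDCAF8 library). SREBF2 did not pass in either state, with differences of 0.12 and 0.00 log2 and intervals of -0.03 to 0.27 and -0.15 to 0.15, the latter difference being 0.060 and -0.055 without each. The 2 SREBP genes thus differed in their result against siNS, and no test set one against the other.

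Among the enzymes, NSDHL, which removes a carboxyl group from the sterol ring, was 26.97 and 26.36 FPKM in siNS and 16.34 and 17.81 in siDCAF8, a fall by 0.62 (SE 0.08, adjusted p = 3.52e-06). Under erastin NSDHL was 28.2 and 27.29 against 14.05 and 14.07, 1.91-fold lower, the same without either treated siDCAF8 library (-0.93 in both). HMGCS1 did not pass untreated (log2 -0.20, adjusted p = 0.186) and was 1.94-fold lower under erastin (log2 -0.95, SE 0.13, adjusted p = 5.2e-06), with -0.65 and -1.26 when replicate 1 or 2 of the treated siDCAF8 pair was left out. The untreated siDCAF8 values of HMGCS1, 45.59 and 52.65 FPKM, both lay below those of siNS. NPC2 was higher in siDCAF8 in both states, by 0.39 and 0.48 log2, and SOAT1, which esterifies cholesterol for storage, was lower, with a difference of -0.46 in both. Without each treated library NPC2 had 0.50 and 0.47, and SOAT1 -0.46 and -0.47.

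The oeWDR76 libraries differed most from siNS. Untreated, 8 members were higher and 17 lower, where 41.6% of all genes were called higher and 32% lower, 73.6% in all. Under erastin 8 were higher and 19 lower, against 45.2% and 31%, 76.2% in all. The median of the members was -0.41 log2 and -0.49 under erastin, beside 0.07 and 0.11 for all genes; median-ratio scaling and quantile normalization brought the latter to 0.008 and -0.008. With GC content and length corrected the medians of the members were -0.58 and -0.87. Of these calls, 23 of 25 and 24 of 27 held without each library.

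HMGCS1 was 58.46 and 54.36 FPKM in siNS and 13.75 in both oeWDR76 libraries, 3.89-fold lower (log2 -1.96, SE 0.13, adjusted p = 5.93e-10). Under erastin it was 110.33 and 99.02 against 12.15 and 12.32, 7.97-fold lower (log2 -3.00, adjusted p = 2.97e-12), the largest difference of any member in any comparison made here. SQLE was 29.44 and 32.53 FPKM untreated and 30.59 and 30.74 with erastin, 2.53-fold and 3.51-fold lower than siNS. MSMO1 was 38.15 and 36.78, and 35.79 and 37.38 with erastin, lower by log2 differences of -1.51 (adjusted p = 1.66e-09) and -1.93 (7.16e-11). All oeWDR76 values of these 3 enzymes lay below every value of the other groups. IDI1, SC5D, STARD4 and ACAT2 were lower too, by log2 differences of -1.25, -1.16, -1.38 and -0.83 untreated.

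ABCA1 was 24.43 and 23.9 FPKM in siNS, 4.56 and 4.33 in oeWDR76, and 4.01 and 4.02 there with erastin. It was 4.62-fold lower untreated (log2 -2.21, SE 0.06, adjusted p = 2.57e-14) and 4.31-fold lower under erastin (log2 -2.11, adjusted p = 5.4e-14), and with the GC and length correction the differences were -1.71 and -1.54. SREBF2 was 55.67 and 54.31 FPKM, and 51.18 and 48.71 with erastin, lower by -0.79 and -0.93 log2 (adjusted p = 3.11e-08 and 3.38e-09). SREBF1 moved the other way, at 43.63 and 49.45 FPKM, and 35.13 and 35.32 with erastin, higher by 0.92 and 1.06 log2. In oeWDR76 the exporter and the main SREBP gene of sterol synthesis were thus low and SREBF1 was high. For SREBF2 this did not hold in untreated siDCAF8. There SREBF1 had a mean of 39.3 FPKM, against 24.0 in untreated siNS, and SREBF2 104.4 against 96.0.

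Other members higher in oeWDR76 were NPC2 (0.88 and 1.03 log2, untreated and with erastin), TM7SF2 (0.93 and 1.05), EBP, the sterol isomerase (0.65 and 0.52), SCAP (0.51 and 0.61), PMVK (0.41 and 0.92), SOAT1 (0.41 and 0.52) and INSIG2 (0.24 and 0.24). Corrected for GC content and length, on which these libraries differed, the values were 0.53 and 0.62 for NPC2, 0.44 and 0.43 for TM7SF2, 0.29 and 0.10 for EBP (the latter not called, adjusted p = 0.306) and 0.30 and 0.35 for SCAP. PMVK became -0.035 (adjusted p = 0.773) untreated and 0.35 with erastin, and SOAT1 rose to 0.81 and 0.90. The corrected values of HMGCS1 were -1.67 and -2.73, of SQLE -1.42 and -1.90, and of MSMO1 -1.55 and -2.07, while SC5D became -0.74 untreated. FDPS was not called (-0.07 and 0.09 log2) and changed sign under erastin with quantile normalization (-0.15) or the GC correction (-0.32), and NPC1 (0.03 untreated, not called) changed to -0.20 with quantile normalization.

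In siDCAF8+siLSH, 3 members were higher and 18 lower than in siNS untreated, where 35.9% of all genes were called higher and 30.9% lower, 66.8% in all. With erastin 6 were higher and 20 lower, against 39.3% and 26.7%, 66% in all. Member medians were -0.30 and -0.42 log2, beside 0.03 and 0.07 for all genes. Of these calls, 15 of 21 and 21 of 26 held without each library. STARD4 was 11.8 and 11.53 FPKM untreated, 2.97-fold lower (log2 -1.57, SE 0.12, adjusted p = 1.12e-08), and 9.11 and 10.27 with erastin, 5.09-fold lower (log2 -2.35, adjusted p = 1.42e-10). FDFT1, the squalene synthase, was 175.34 and 179.81 FPKM in siNS and 94.61 and 98.02 here, 1.84-fold lower (log2 -0.88, SE 0.08, adjusted p = 5.8e-08). HMGCS1 was lower by log2 differences of -0.48 (adjusted p = 0.00324) and -1.76 (5.06e-09), and MSMO1 by -0.87 and -1.39. These genes were lower in both libraries of each state.

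SREBF2 was 66.23 and 59.14 FPKM untreated and 70.84 and 70.14 with erastin, lower than in siNS by log2 differences of -0.61 and -0.44. SREBF1 was higher by 0.22 untreated (adjusted p = 0.0269; 0.41 with the GC and length correction) and by 0.90 with erastin (adjusted p = 1.04e-07). NPC2 and PMVK were higher in both states, by 0.56 and 0.56 untreated and by 0.65 and 0.83 with erastin. NPC1 was 1.64-fold lower untreated (log2 -0.72, adjusted p = 9.48e-07) and 1.23-fold lower with erastin (log2 -0.29, adjusted p = 0.0048).

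Against siDCAF8, siDCAF8+siLSH had 5 members higher and 9 lower untreated, where 26.4% of all genes were called higher and 21.7% lower, 48.2% in all. Under erastin it had 5 higher and 8 lower, against 30.4% and 19.3%, 49.7% in all. Untreated, SREBF2 was 108.07 and 100.79 FPKM in siDCAF8 and 66.23 and 59.14 with LSH also targeted, a fall by 0.73 (SE 0.07, adjusted p = 9.36e-07). FDFT1 went from 139.41 and 147.12 to 94.61 and 98.02, a fall by 0.57 (adjusted p = 2.6e-05), and SOAT1 from 8.08 and 8.24 to 11.28 and 12.26, a 1.39-fold rise (log2 0.48, adjusted p = 3.93e-05). None of the 3 overlapped, and each call held without each library. Without siDCAF8+siLSH replicate 2 the untreated count was 7.

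Under erastin, HMGCS1 was 29.39 and 30.76 FPKM against 43.05 and 66.33 in siDCAF8, lower by a log2 difference of -0.81 (SE 0.13, adjusted p = 6.7e-05), which was -1.12 without erastin-treated siDCAF8 replicate 1 and -0.50 without replicate 2. MSMO1 was 52.92 and 54.53 against 77.91 and 112.13, with -0.79 (adjusted p = 1.6e-05), and -1.05 and -0.53 in the same order. PMVK was 17.08 and 15.35 against 10.74 and 9.13, higher by 0.66 (SE 0.10, adjusted p = 6.46e-05), and by 0.76 and 0.55. These 3 kept their calls without each library, whereas that of STARD4 (-0.46, and -0.72 without replicate 1) was lost without replicate 2 of the siDCAF8 pair (-0.20, adjusted p = 0.139). The excess of lower calls rested on the same library: without treated siDCAF8 replicate 2 the split was 7 higher and 6 lower and the member median 0.0091, against -0.10 with both, and without replicate 1 it was 4 and 13 with -0.17. The split was 4 higher and 12 lower with median-ratio scaling, and the same with GC content and length corrected. NPC2, 0.16 higher here, had -0.024 (adjusted p = 0.718) with that correction, and was not called without replicate 1 (0.15, adjusted p = 0.0989) or replicate 2 (0.17, 0.0637).

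A wider set of 56 genes around the pathway was described by counts. It held genes of SREBP processing and sterol sensing, of the isoprenoid branch, and of sterol handling, none of them members, and 51 were tested. Erastin raised 10 and lowered 14 of them in siNS, 47.1% against 37.5% of all genes tested. It raised 8 and lowered 13 in siDCAF8 (41.2% against 40.9%), and 6 and 10 in siDCAF8+siLSH (31.4% against 20.2%). In oeWDR76 limma called 0, against 1.45% of all genes. At an unadjusted p under 0.05 it found 8 of the 51, against 1527 of all 11260 genes. Against siNS, siDCAF8 had 17 higher and 18 lower in each state, 68.6% of the set against 61% of all genes untreated and 64.8% with erastin. The set in oeWDR76 had 13 and 20 untreated (64.7% against 73.6%) and 17 and 22 with erastin (76.5% against 76.2%). In siDCAF8+siLSH it had 18 and 17 untreated (68.6% against 66.8%) and 18 and 21 with erastin (76.5% against 66%). Against siDCAF8, siDCAF8+siLSH had 14 higher and 9 lower untreated (45.1% against 48.2%) and 16 and 10 with erastin (51% against 49.7%). The shares of the set thus lay on both sides of those of all genes, and were not tested against them.

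The response differed from siNS for 9 higher and 5 lower of the set in siDCAF8 (27.5% against 20.8% of all genes), 9 and 3 in oeWDR76 (23.5% against 14.1%) and 7 and 8 in siDCAF8+siLSH (29.4% against 24.8%). Between siDCAF8+siLSH and siDCAF8 it differed for 6 and 7 (25.5% against 23.5%). Without treated siDCAF8 replicate 1 and replicate 2, the set had 6 higher and 9 lower, and 5 and 11, for erastin in siDCAF8. Against siNS under erastin it then had 17 and 18, and 14 and 15, and for siDCAF8+siLSH against siDCAF8 under erastin 13 and 9, and 13 and 11. For the response of siDCAF8 against siNS the set median was -0.0075 log2 with both libraries, -0.00016 without replicate 1 and -0.037 without replicate 2. For the response of siDCAF8+siLSH against siDCAF8 it was -0.063, -0.054 and -0.013 in the same order.

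Under erastin in siNS the genes of this set with the largest differences were VLDLR, a lipoprotein receptor (-0.75 log2), COQ2, which attaches the side chain of coenzyme Q (-0.61), and OSBPL5, an oxysterol-binding protein (-0.57). SEC24D, a coat protein of the vesicles that carry cargo from the endoplasmic reticulum to the Golgi, was lower than in siNS by -1.47 log2 in siDCAF8, -1.53 in oeWDR76 and -1.07 in siDCAF8+siLSH, all untreated. CAV1, the caveolar coat protein, was 0.88 higher in untreated siDCAF8. MYLIP, a ubiquitin ligase for lipoprotein receptors, was lower in oeWDR76 (-1.25). ICMT, which methylates prenylated proteins, was 1.47 higher in siDCAF8+siLSH than in siNS, and NCEH1, a cholesterol ester hydrolase, was lower there than in siDCAF8 (-0.99), both untreated. The response of VLDLR differed from that of siNS by 0.80 in siDCAF8 (0.65 and 0.95 without each treated siDCAF8 library) and 0.96 in siDCAF8+siLSH.

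Likeness of pattern was taken as Pearson's r of log2(FPKM + 1) over the 16 libraries, which share groups and the GC shift of oeWDR76, and it is a description with no test. The member most like HMGCS1 was SQLE (0.98), followed by MSMO1 (0.96), IDI1 (0.95) and CYP51A1 (0.95). TM7SF2 ran most against it (-0.90). STARD4 was most like HSD17B7, a ketosteroid reductase (0.91), and FDFT1 (0.87). SREBF2 was most like MSMO1 and HMGCS1 (0.87 each), while SREBF1 was most like TM7SF2 (0.71) and most unlike IDI1 (-0.86). The mean r between pairs was 0.32 in the sterol segment, 0.14 in the mevalonate segment, -0.15 among the control genes, -0.09 among the transport genes and 0.10 over all 30.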

How the data were processed

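The authors deposited a single table of FPKM values, given to 2 decimals for each gene in each library. The submitters' processing notes name StringTie and GRCh38, and no aligner, annotation or StringTie version is stated in what was used here. Per the labels' protocols, Trizol RNA was amplified with Smart-seq v4 and sequenced on a BGISEQ500. Of 24107 entries 6555 hold no values, and 28 symbols that had become dates were restored. The file holds no counts.

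The measure tested was log2(FPKM + 1), over the 11260 genes whose mean reached 1 FPKM. limma 3.58.1 (R 4.3.3) fitted the 8 groups, with a trended eBayes on 8 residual and 8.57 prior degrees of freedom. Each of 16 contrasts was tested two-sided and adjusted by Benjamini-Hochberg over all tested genes, with 0.05 as the threshold for a call. A fold is of FPKM plus 1, which understates changes of low genes, and each group has n = 2 libraries. For each contrast the 3 called members with the largest log2 difference were named, and up to 3 such genes of the wider set. Others were named for their role after their values were seen. The members and lists were chosen with earlier results of these data known. Tables came from Python 3.11.15 with numpy 2.4.6 and pandas 2.3.3, and plots from matplotlib 3.10.9.

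On simulated data of 11260 genes with 200 changed, 86.2% of changes of 0.5 log2 and 98.9% of 1 were recovered for erastin in siNS, with 4.87% of calls false. For the response of siDCAF8 against siNS, 61.9% and 95.4% were recovered, with 4.18% false. The simulated noise was normal and independent between genes, and only the 200 genes in erastin-treated siNS were changed. In the data, 37.5% of genes were called for erastin in siNS, and members moved together between the erastin-treated siDCAF8 libraries. These rates therefore do not carry over to the contrasts here. The alternatives were: pseudocount 0.1; no filter; mean FPKM of 5 or more; scaling by median ratios; quantile normalization; replicate number as a block; correction for GC (known for 11086 genes) and length; fitting the compared groups alone; and omitting each library in turn.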

Additional observations from a re-analysis of the deposited data

Results flagged for a closer look

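Each value here is a difference between the erastin responses of 2 backgrounds that passed limma's test of the difference itself, on the log2 scale. Against siNS, HMGCS1, the HMG-CoA synthase, had a response lower by a difference of -0.76 in siDCAF8, -1.04 in oeWDR76 and -1.29 in siDCAF8+siLSH. INSIG1, the retention factor for SCAP, had -0.66, -0.99 and -0.90 in the same order, and its call in siDCAF8 was lost without erastin-treated siNS replicate 1 (-0.50, adjusted p = 0.0569). The 3 comparisons share the siNS libraries. TM7SF2, a sterol reductase, had a higher response in siDCAF8, by 0.45. That call was lost with quantile normalization (0.38, adjusted p = 0.0701), once low genes were kept in the fit (adjusted p = 0.107) and without any 1 of 6 of the 8 libraries, with 0.31 (adjusted p = 0.197) without siNS replicate 1. DHCR7, a late reductase, had a lower one in oeWDR76, by a difference of -0.56. It was lost with low genes kept (adjusted p = 0.0592), without erastin-treated siNS replicate 1 (0.0699) and without oeWDR76 replicate 2 (0.054). STARD4, a sterol carrier, had a lower one in siDCAF8+siLSH, by a difference of -0.77. Between siDCAF8+siLSH and siDCAF8, HMGCS1 differed by -0.53, MSMO1, a sterol demethylase, by -0.49 and SCAP by 0.50. All 3 were lost with GC content and length corrected, and HMGCS1 and MSMO1 also with low genes kept, with only the groups compared, and without any library but siDCAF8 replicate 2 and erastin-treated siDCAF8 replicate 1. The other calls named here held under every alternative tried.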

How the results depend on the processing

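Counts of members called moved by over 1.5 times as follows. With no filter on low values, where more genes enter the adjustment, erastin in oeWDR76 gave 1, and the responses gave 4 for siDCAF8 against siNS, 2 for oeWDR76 against siNS and 1 for siDCAF8+siLSH against siDCAF8. With only the groups compared, erastin in oeWDR76 gave 4 and the response of siDCAF8+siLSH against siDCAF8 gave 2. With GC content and length corrected, that response gave 0. A fit without 1 library leaves a group with a single library, and a change in its count was not separated from that loss of power. Calls that held without each library were counted for the members alone. No share over all genes stands beside them, so they are not a result about the pathway. For erastin in siNS, oeWDR76 and siDCAF8+siLSH, every such fit also called fewer of all genes than the full fit. Leaving out 1 library at a time gave 9 to 15 for erastin in siNS, 0 to 1 in oeWDR76, 4 to 7 in siDCAF8+siLSH, 7 to 13 for siDCAF8+siLSH against siDCAF8 untreated, and for the responses 1 to 14 (siDCAF8 against siNS), 2 to 7 (oeWDR76 against siNS) and 1 to 11 (siDCAF8+siLSH against siDCAF8).

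Directions turned in these results, each called either with the main settings or under the alternative. In oeWDR76 against siNS, PMVK untreated became -0.035 with the GC and length correction, NPC1 untreated -0.20 with quantile normalization, and FDPS with erastin -0.15 with quantile normalization and -0.32 with the correction. With the same correction, siDCAF8+siLSH against siDCAF8 gave GGPS1 -0.16, SCAP 0.15 and INSIG2 -0.21 untreated and NPC2 -0.024 with erastin, and siDCAF8+siLSH against siNS untreated gave SCAP 0.14. Leaving out 1 library turned the sign of 0 of the 245 called differences of single members and of 85 of the 235 not called, among them HMGCS1, INSIG1, STARD4 and IDI1 for erastin in siDCAF8 (-0.18, -0.06, -0.18 and -0.11 without treated replicate 2). The cause was not tested.

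The labels do not say whether equal replicate numbers mark a shared culture or day, and 2 libraries per group cannot settle it. Over 28 pairs of groups, r of same-numbered deviations was -0.208 to 0.389 and over 0.1 in 7. With the replicate block, erastin in siNS gave 18 members, and no count of members moved by over 1.5 times. Depth limits ABCG1, for which no change could be read at 0 to 0.12 FPKM, with 1 fragment worth about 0.0198 by the estimate given above.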
